A study of Mus musculus with 16 samples.

Results

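Natriuretic peptides are hormones that heart muscle cells make and release when the wall is stretched. The genes described here are 8 of the 55487 in the count tables, taken by symbol: the ligand genes Nppa and Nppb, the protease genes Corin, Pcsk6 and Furin, the receptor genes Npr1 and Npr2, and Mme, which encodes the degrading enzyme neprilysin. RNA was sequenced from left ventricular mid sections of 8 multiparous mice, with a history of more than 3 pregnancies, and of 8 virgin mice. All were C57Bl/6J, 24 months old and untreated, and the comparison asks how parity as such affects the cardiac transcriptome. Library names carry the code MP or P in 4 multiparous libraries each and AA in all virgin libraries. The meaning of these codes is not given, so parity and code cannot be told apart between multiparous and virgin hearts.

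Atrial natriuretic peptide, from Nppa, is stored in atrial muscle cells and is made at low levels in the healthy adult ventricle. B-type natriuretic peptide, from Nppb, is made by ventricular as well as atrial muscle and responds quickly to stretch. Both are made as longer precursors: corin, a protease on the muscle cell surface, cuts pro-ANP, furin cuts pro-BNP, and PCSK6 (PACE4) activates corin itself. The hormones bind guanylyl cyclase A, from Npr1, which makes cyclic GMP, relaxes vessels and promotes salt loss, while guanylyl cyclase B, from Npr2, is the receptor of C-type natriuretic peptide. Neprilysin and the clearance receptor, from Npr3, remove the peptides.

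The gene count per library was 34560606 to 58890976 in 15 libraries and 228325238 in virgin 8. At the members' levels every library held at least 751 reads per gene, so counting error was small beside the spread of the ligand genes between libraries. Levels are gene counts relative to library size (CPM), scaled between libraries by TMM factors, and differences are log2 fold changes of multiparous over virgin from edgeR's quasi-likelihood test. Heart muscle genes were high in all 16 libraries. A list of 10 ventricular muscle markers summed to 62245 to 79631 CPM in multiparous hearts, against 57261 to 85201 CPM in virgin hearts. This sum was made up mostly of Ttn and Myh6 and does not by itself show the chamber of origin. Myl2, of the same list, measured 4563 to 6319 CPM in multiparous hearts, against 5073 to 7238 CPM in virgin hearts. Of the atrial markers, Sln, the defining one, was at 0 in 10 of 16 libraries, with a highest value of 0.0556 CPM, and Myl7 did not pass 0.523 CPM in any library. Over the 10 atrial genes, 7 were tested, with 4 higher and 3 lower by the mean, 1 at an unadjusted p under 0.05, Stard10, and 0 called. Kidney tubule transcripts were present at low levels, and a 23-gene sum measured 14.1 to 42.8 CPM in multiparous hearts, against 24.0 to 161 CPM in virgin hearts. Of these genes 16 were tested, all 16 lower by the mean in multiparous hearts (median log2 fold change −3.22). At an unadjusted p under 0.05 stood 15 of them, where 4.09% of all genes were lower, and 0 were called.

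Nppb and Nppa are neighbours on chromosome 4 of GRCm38, both on the plus strand, and no annotated gene lies wholly in the 13516 bases between them. Nppb (ENSMUSG00000029019.8) spans 147985788 to 147987205 and Nppa (ENSMUSG00000041616.9) 148000722 to 148002079. The 250 bases before each RefSeq gene start are shown because these neighbours, which share several known regulators, had opposite differences between the groups. Capitals mark matches to GATAA (the core bound by GATA factors), CATTCC (M-CAT, bound by TEAD factors) and AAGTG (bound by NKX2-5), each on either strand, and to TATAAA on the sense strand.
Nppa chr4:148000472-148000721: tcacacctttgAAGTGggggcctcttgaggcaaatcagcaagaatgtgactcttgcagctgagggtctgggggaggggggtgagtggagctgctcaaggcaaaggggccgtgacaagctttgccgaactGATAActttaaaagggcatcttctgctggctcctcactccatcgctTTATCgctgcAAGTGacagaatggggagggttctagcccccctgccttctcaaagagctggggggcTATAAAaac
Nppb chr4:147985650-147985899: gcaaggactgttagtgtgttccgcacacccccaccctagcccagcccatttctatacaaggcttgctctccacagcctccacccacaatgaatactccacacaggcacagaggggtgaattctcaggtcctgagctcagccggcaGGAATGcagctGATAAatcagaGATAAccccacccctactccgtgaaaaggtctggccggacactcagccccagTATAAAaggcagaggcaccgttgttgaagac

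Both windows held 2 GATAA matches and 1 TATAAA match. The CATTCC match stood in the Nppb window alone, 105 to 100 bases before the start, and both AAGTG matches stood in the Nppa window. Of 32851 RefSeq mouse promoter windows of this length, 22.6% held GATAA, 12.6% CATTCC, 40.7% AAGTG and 7.59% TATAAA, so such short matches are common and are given as a description. For Nppb, GENCODE M21 places the start of the gene inside the window shown.

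Compared per kilobase of exon (RPKM), Nppb was the most abundant member in both groups. In multiparous hearts it averaged 176 ± 59 RPKM (SD, n = 8), followed by Nppa at 77.0 ± 30.0, Corin at 55.6 ± 6.9, Furin at 19.1 ± 1.4, Pcsk6 at 18.1 ± 1.7, Npr2 at 14.3 ± 0.6, Npr1 at 5.27 ± 0.45 and Mme at 1.78 ± 0.26 RPKM. In virgin hearts Nppb averaged 270 ± 100 RPKM, Corin 55.4 ± 7.5 and Nppa 45.7 ± 30.6 RPKM, so Corin stood above Nppa by the mean. Below them came Furin at 18.9 ± 1.8, Npr2 at 14.6 ± 1.0, Pcsk6 at 14.5 ± 1.8, Npr1 at 5.13 ± 0.49 and Mme at 1.84 ± 0.29 RPKM (SD, n = 8). Nppb was above Nppa in every library. The ranges of Nppa and Corin overlapped in both groups, as did those of Furin and Pcsk6 and of Pcsk6 and Npr2. Npr1 lay below Npr2 in every library, and Mme below Npr1. Lengths are of all annotated exons together, which can understate genes such as Furin and Mme whose transcripts differ in their ends.

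None of the 8 members passed an adjusted p of 0.05 between multiparous and virgin hearts, where 0.0112% of the 17813 genes tested did (edgeR, Benjamini-Hochberg adjusted). All 8 passed the filter on low counts. At an unadjusted p under 0.05 stood 3 members, beside 8.12% of all genes. Of these, 2 were higher, Nppa and Pcsk6, beside 4.04%, and 1 was lower, Nppb, beside 4.09%. DESeq2 called 1 member, Pcsk6, beside 0.73% of all genes, and limma voom called 0, beside 0.0168%. The groups did not overlap for 0 members, beside 0.0337% of all genes. The median log2 fold change was 0.01 over the members and −0.0030 over all genes tested. Since the members were chosen with earlier results of these data known, these shares describe them and support nothing further.

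**Figure D1:**
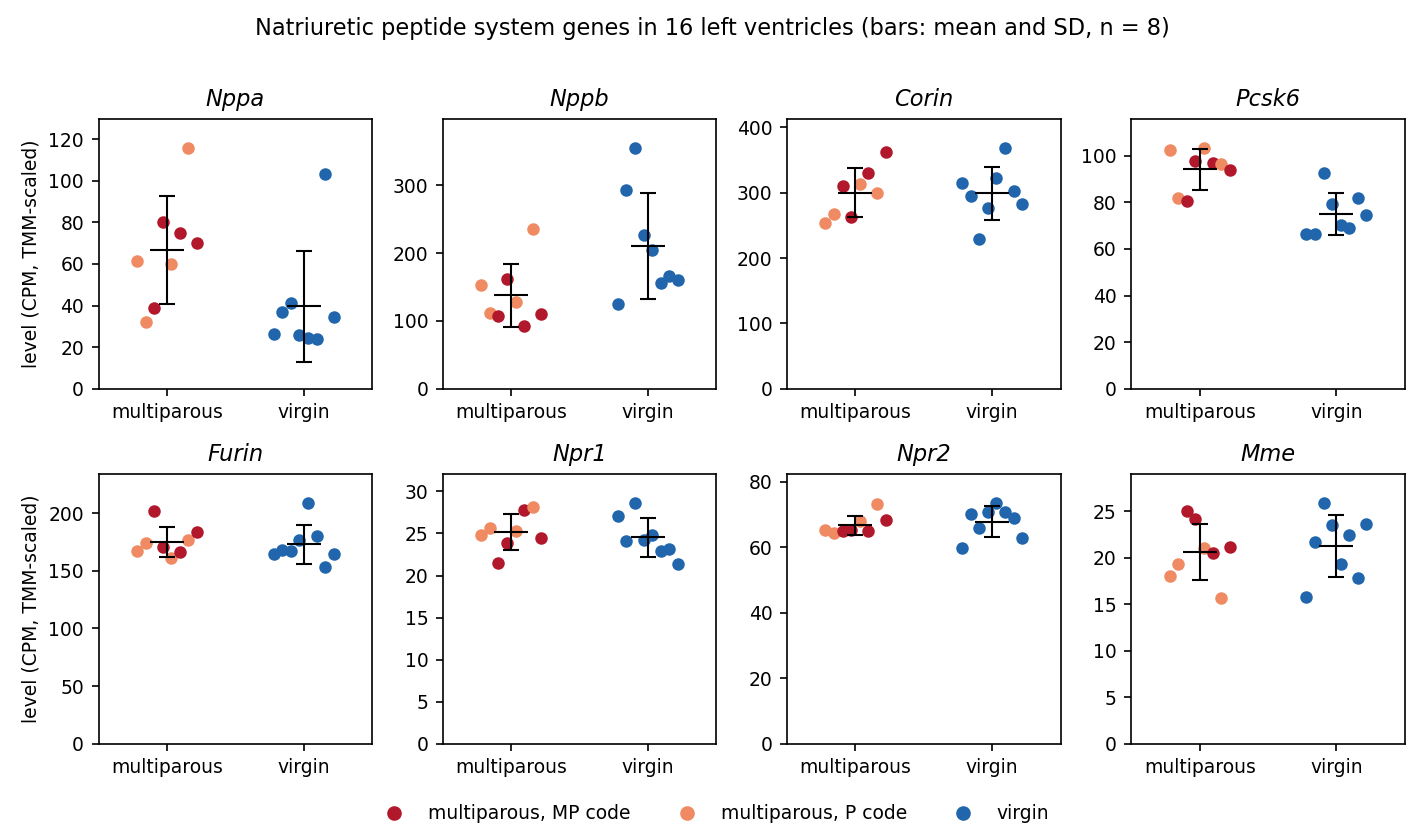
Level of each gene in CPM (linear axes from 0) by library, with multiparous libraries coloured by code, and black bars for the mean and SD of 8 libraries. Nppa reaches 103 CPM in virgin 7 and at most 41.4 CPM in the other virgin libraries, while Furin, Npr1 and Npr2 sit at nearly the same level in both groups.

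Nppa had a higher mean in multiparous hearts and Nppb a lower mean, and neither difference passed. Nppa measured 32.2 CPM at the lowest, 65.7 at the median and 116 at the highest in multiparous hearts, against 23.8, 30.6 and 103 CPM in virgin hearts. In multiparous hearts 6 of 8 libraries lay above the virgin mean of 39.5 CPM, and in virgin hearts virgin 7 alone was above 41.4 CPM. The log2 fold change was 0.75 (SE 0.30, 95% interval 0.12 to 1.38, edgeR adjusted p = 0.511).

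Whether the difference in Nppa passed depended on virgin 7. Without that library the log2 fold change was 1.13 (SE 0.22) and Nppa was called higher (edgeR adjusted p = 0.0399), in a fit that called 0.307% of all genes. Over the fits that left out 1 library each, the adjusted p ranged from 0.0399 to 0.725, and the log2 fold change was lowest, 0.59, without multiparous 7. Multiparous 7 held the highest Nppa level of all hearts, 116 CPM, and multiparous 2 the lowest level of its group, 32.2 CPM. Both multiparous codes had means above the virgin mean: 65.9 ± 18.6 CPM in MP and 67.4 ± 35.0 CPM in P libraries (SD, n = 4 each).

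Nppb measured 93.0 CPM at the lowest, 120 at the median and 236 at the highest in multiparous hearts, against 125, 185 and 356 CPM in virgin hearts. The groups overlapped, with 4 multiparous libraries below the lowest virgin one and 1, multiparous 7, above the virgin mean of 211 CPM. It differed by −0.61 on the log2 scale (SE 0.21, 95% interval −1.06 to −0.17, edgeR adjusted p = 0.394). The difference was −0.84 in MP-coded and −0.43 in P-coded libraries, each against the virgin hearts (edgeR adjusted p = 0.347 and 0.737).

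Set against each other, the ligand genes separated most hearts of the 2 groups. Per length, Nppa transcripts stood at 0.260 to 0.725 of the Nppb level in multiparous hearts, with a median of 0.435, and at 0.103 to 0.560 in virgin hearts, with a median of 0.125. Among virgin libraries the ratio was 0.560 in virgin 7 and did not exceed 0.195 in the others, below every multiparous library. The MP-coded libraries averaged 0.518 ± 0.172 and the P-coded ones 0.373 ± 0.083 (SD, n = 4 each). No test was made of this ratio, which was formed with the opposite directions of its parts already known and which needs no scaling between libraries.

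**Figure D2:**
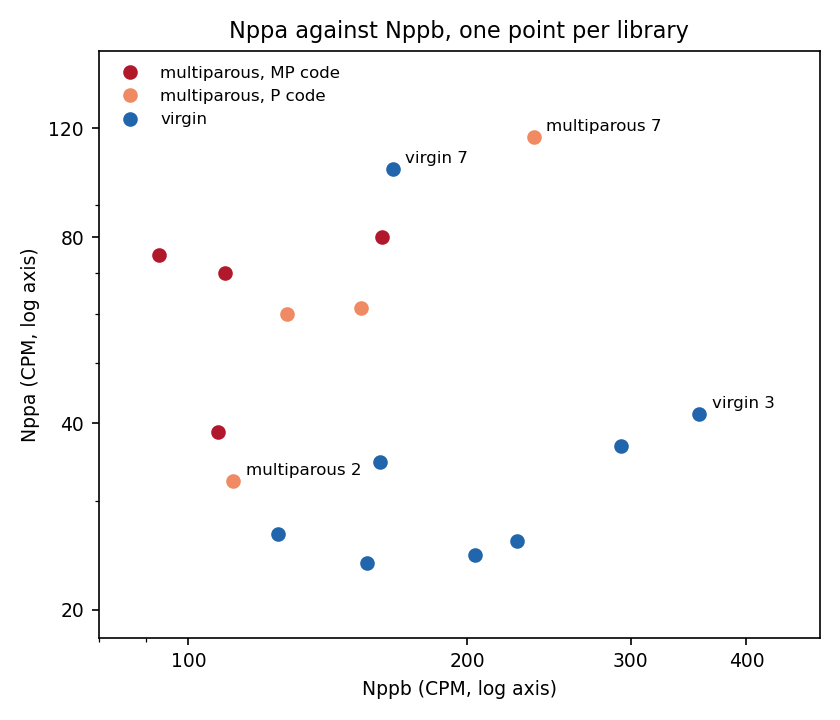
Nppa against Nppb in CPM (both axes logarithmic), with 1 point per library coloured by group and code. At a like Nppb level the multiparous points lie higher in Nppa than the virgin points, with the exception of virgin 7, which had 103 CPM of Nppa at 166 CPM of Nppb.

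In bulk tissue, fewer cells of a type and less RNA per cell cannot be told apart, and the sums of several marker lists are given here without a test. Over all genes tested, 4.04% were higher and 4.09% lower at an unadjusted p under 0.05. Genes of a list can vary together, so counts of them only describe the list. The sum of 10 fibroblast markers was 1463 to 2218 CPM in multiparous hearts, against 1351 to 1854 CPM in virgin hearts, with 8 of 10 genes higher by the mean, 4 at an unadjusted p under 0.05 and 0 called. The sum of 7 endocardial markers was 106 to 154 CPM in multiparous hearts, against 72.5 to 157 CPM in virgin hearts, with all 6 tested genes higher by the mean, 4 at an unadjusted p under 0.05 and 0 called. It was highest in virgin 7 and multiparous 7, the hearts with the most Nppa, but virgin 5 had 142 CPM of it beside 24.5 CPM of Nppa. Cntn2, a marker of the conduction fibres beneath the endocardium, lay between 4.05 and 17.1 CPM in multiparous hearts, and between 0.396 and 27.2 CPM in virgin hearts, 5 of which were at 1.75 CPM or less.

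With the endocardial sum as a covariate, the log2 fold change was 0.48 for Nppa and −0.42 for Nppb. With the fibroblast sum, it was 0.11 for Nppa and −0.64 for Nppb, and with the kidney sum, 0.47 for Nppa (edgeR adjusted p from 0.898 to 1.00 in these fits). The endocardial and fibroblast covariates were chosen after the data were seen. Those sums, like the kidney sum, have other means in the 2 groups, so these fits cannot fully separate them from parity. The atrial marker sum was 145 to 184 CPM in multiparous hearts, against 132 to 171 CPM in virgin hearts, made up mostly of Kcnj3. Stard10 averaged 15.4 ± 1.2 CPM in multiparous hearts, 7 of 8 of them above every virgin heart, against 13.5 ± 0.8 CPM in virgin ones (log2 fold change 0.18, edgeR adjusted p = 0.251). Bmp10, an atrial growth factor gene, averaged 0.894 ± 0.671 CPM in multiparous hearts, against 0.612 ± 0.412 CPM in virgin ones (log2 fold change 0.59, edgeR adjusted p = 0.817). Hamp, the hepcidin gene, averaged 0.755 CPM in multiparous hearts, against 0.0912 CPM in virgin ones, and was not tested. Its multiparous values ran from 0 to 2.69 CPM, with 3 libraries above every virgin one. Other atrial markers were lower by the mean in multiparous hearts: Mybphl at 0.112 against 0.233 CPM, Sln at 0.0029 against 0.0213 CPM and Myl7 at 0.251 against 0.302 CPM. Both Bmp10, at 2.16 CPM, and Hamp, at 2.69 CPM, were highest in multiparous 7, the heart with the most Nppa, while virgin 7 held 0.742 CPM of Bmp10 and 0.0195 CPM of Hamp. Multiparous 2, with the least Nppa of its group at 32.2 CPM, held 2.37 CPM of Hamp and 0.161 CPM of Bmp10. The part of Stard10, Bmp10 and Hamp taken singly was not tested, and their values were chosen after they were seen. With the atrial sum as a covariate the log2 fold change was 0.78 for Nppa and −0.36 for Nppb. Within multiparous hearts, r with the atrial sum was −0.73 for Nppa (exact permutation p = 0.0424, adjusted p = 0.384). It was −0.36 without multiparous 2 and multiparous 7. For Nppb it was −0.68 (exact permutation p = 0.0565, adjusted p = 0.384). In virgin hearts r was 0.22 for Nppa and −0.56 for Nppb (exact permutation p = 0.674 and 0.151, adjusted p = 0.895 and 0.496).

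Pcsk6, the convertase that activates corin, had the smallest p of the members. It measured 80.4 CPM at the lowest, 96.6 at the median and 103 at the highest in multiparous hearts, against 66.4, 72.5 and 92.5 CPM in virgin hearts. All 8 multiparous libraries lay above the virgin mean, and 6 of them above virgin 3, the highest virgin library. The log2 fold change was 0.33 (SE 0.07, 95% interval 0.18 to 0.48, edgeR adjusted p = 0.0954), and its p ranked 36 among the genes tested. DESeq2 gave a log2 fold change of 0.33 and called it (DESeq2 adjusted p = 0.00439). Over the edgeR fits that left out 1 library each it never passed, with an adjusted p of 0.0501 to 0.184 and a log2 fold change of 0.30 to 0.38.

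By code, the Pcsk6 difference was 0.30 in MP-coded and 0.35 in P-coded libraries against the virgin hearts (edgeR adjusted p = 0.341 and 0.130). With the fibroblast marker sum as a covariate it was 0.16 (SE 0.06, edgeR adjusted p = 0.941), while with the endocardial sum it was 0.35. The genes most like Pcsk6 over the 16 libraries, after each group's mean was taken out, were Itga11, a collagen-binding integrin, Islr and Tcf21 (r = 0.87, 0.86 and 0.85). Tcf21, a transcription factor of cardiac fibroblasts, is itself in the fibroblast list.

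Corin and Furin had nearly equal means in both groups. Corin measured 254 CPM at the lowest, 305 at the median and 363 at the highest in multiparous hearts, against 228, 299 and 369 CPM in virgin hearts. Its log2 fold change was 0.0054, with a 95% interval of −0.17 to 0.19 (edgeR adjusted p = 0.995). Furin measured 161, 172 and 202 CPM at the same points in multiparous hearts, against 153, 168 and 209 CPM in virgin hearts, a log2 fold change of 0.02 with an interval of −0.10 to 0.14 (edgeR adjusted p = 0.970). For both genes the sign of so small a difference turned in several alternative fits.

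Of the receptor genes, Npr2 had the narrowest interval of all members. Npr1 measured 21.5 CPM at the lowest, 25.1 at the median and 28.2 at the highest in multiparous hearts, against 21.4, 24.2 and 28.7 CPM in virgin ones (log2 fold change 0.04, 95% interval −0.09 to 0.17, edgeR adjusted p = 0.927). Npr2 measured 64.5, 65.3 and 73.1 CPM in multiparous hearts, against 59.7, 69.6 and 73.7 CPM in virgin ones (log2 fold change −0.02, interval −0.11 to 0.07, edgeR adjusted p = 0.941). The groups overlapped for both receptors, and the intervals leave out any difference in Npr2 larger than 0.11 in either direction. In the fit without scaling factors Npr2 turned to 0.0147.

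Mme, the neprilysin gene, measured 15.7 CPM at the lowest, 20.8 at the median and 25.0 at the highest in multiparous hearts, against 15.8, 22.1 and 25.9 CPM in virgin hearts. The log2 fold change, −0.05, was smaller than its SE of 0.10 (95% interval −0.26 to 0.17, edgeR adjusted p = 0.951). Neprilysin is also abundant on the brush border of kidney tubules, whose markers, as given above, had a lower mean in multiparous than in virgin hearts for all 16 genes tested. With the kidney marker sum as a covariate the log2 fold change of Mme turned to 0.10 (edgeR adjusted p = 0.942).

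**Figure D3:**
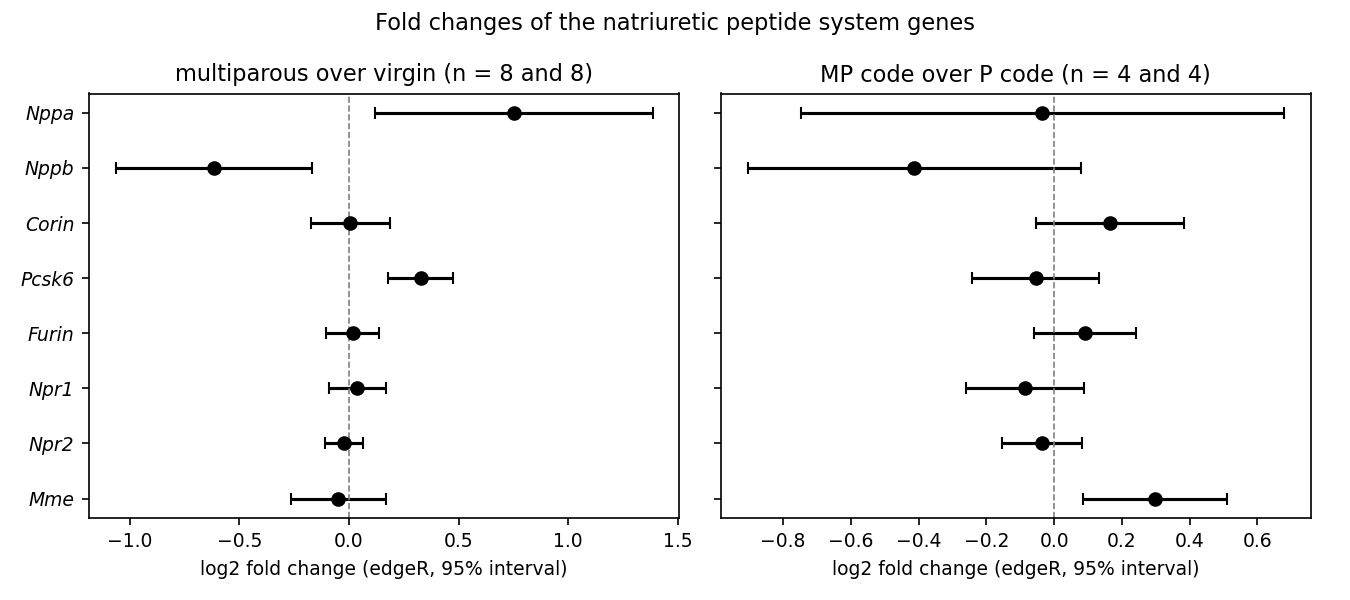
Log2 fold change of each gene with its 95% interval from edgeR, multiparous over virgin hearts on the left and MP-coded over P-coded multiparous hearts on the right. On the left the intervals of Nppa (0.12 to 1.38), Nppb and Pcsk6 leave out 0 before adjustment, and on the right that of Mme does.

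Between the MP-coded and P-coded multiparous hearts, 0 of the 8 members passed (edgeR, where 0.121% of 18123 genes did), and 1, Mme, had an unadjusted p under 0.05, beside 11% of all genes. DESeq2 and limma voom also called 0 members. Mme averaged 22.7 ± 2.2 CPM in MP and 18.5 ± 2.2 CPM in P libraries (SD, n = 4 each), a log2 fold change of 0.30 (SE 0.10, edgeR adjusted p = 0.278), with 3 MP libraries above the highest P one. The kidney sum moved with it, at 19.7 to 42.8 CPM in MP and 14.1 to 20.2 CPM in P libraries, and its part in the difference was not tested. Nppb averaged 118 ± 30 CPM in MP and 157 ± 55 CPM in P libraries (log2 fold change −0.41, edgeR adjusted p = 0.534). Nppa differed by −0.03 and Pcsk6 by −0.05 (edgeR adjusted p = 0.982 and 0.867).

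Other genes of the pathway were taken from lists. Of 10 genes for further ligands, clearance and proteolysis, 8 were tested, 0 called and 1, Dpp4, at an unadjusted p under 0.05 (5 higher and 3 lower by the mean, median log2 fold change 0.07). Dpp4, a dipeptidyl peptidase that trims B-type natriuretic peptide, measured 8.02 ± 1.02 CPM in multiparous hearts, against 5.13 ± 2.35 CPM in virgin hearts (edgeR adjusted p = 0.352). Npr3, the clearance receptor and also an endocardial marker, measured 46.9 ± 6.7 against 38.8 ± 14.3 CPM in virgin hearts (edgeR adjusted p = 0.748), with 5 virgin hearts at 26.2 to 33.4 CPM and the other 3 at 44.4 to 60.9 CPM. Ece1, an endothelin-converting metalloprotease, measured 141 against 130 CPM in virgin hearts (edgeR adjusted p = 0.655). Nppc, the C-type peptide gene, was not tested, being at 0 to 0.0844 CPM in multiparous hearts, against 0 to 0.0556 CPM in virgin hearts.

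Downstream, all 20 genes of cyclic GMP signalling were tested, 0 were called and 0 had an unadjusted p under 0.05, with 12 higher and 8 lower by the mean and a median log2 fold change of 0.02. The smallest p belonged to Pde1a, a phosphodiesterase, at 7.90 ± 1.60 CPM in multiparous hearts, against 6.98 ± 0.65 CPM in virgin hearts (edgeR adjusted p = 0.698), followed by Rgs4, a regulator of G protein signalling, and Abcc4, a cyclic nucleotide exporter. Prkg1, the cyclic GMP-dependent kinase of muscle, measured 22.1 ± 2.2 against 22.2 ± 2.7 CPM in virgin hearts. Upstream, 0 of 19 factors known to bind the Nppa or Nppb promoters or to act there were called and 0 had an unadjusted p under 0.05, with 9 higher and 10 lower by the mean and a median of −0.04. The smallest p in that list were those of Rest, a repressor of both ligand genes, at 46.5 ± 2.9 against 43.8 ± 2.4 CPM in virgin hearts, of Tbx3, and of Tead1, which binds the M-CAT motif, at 411 ± 22 against 434 ± 31 CPM in virgin hearts (edgeR adjusted p = 0.646, 0.728 and 0.741).

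Of 9 load-response genes, 1 was called, Ankrd23, beside 0.0112% of all genes. It was lower in multiparous hearts at 106 ± 15 CPM against 167 ± 28 CPM in virgin hearts (edgeR adjusted p = 0.0446), with 7 of 8 multiparous libraries below the lowest virgin one. In all, 8 had lower means and 1, Myh7, a higher one, with a median of −0.17. Rcan1, a calcineurin regulator, measured 74.9 ± 11.1 against 97.2 ± 19.0 CPM in virgin hearts, and the Z-disc gene Csrp3 552 ± 23 against 623 ± 48 CPM (edgeR adjusted p = 0.266 and 0.217). The list was partly known from earlier results of these data, so its direction is not independent evidence.

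The ligand genes were the most variable members within each group. The SD of log2 CPM was 0.59 in multiparous and 0.70 in virgin hearts for Nppa, and 0.43 and 0.50 in the same order for Nppb. The virgin value for Nppa includes virgin 7, at 103 CPM where the other virgin libraries reached at most 41.4 CPM. An SD without that library was not computed. Among the 4024 genes with a mean within 1 log2 unit of Nppa, 99.8% had a lower SD in multiparous and 99.9% in virgin hearts. For Nppb the shares were 99.3% and 99.6% of 1515 genes. Mme and Corin followed, with SDs of 0.22 and 0.18 in multiparous and 0.24 and 0.20 in virgin hearts, while Npr2 was the steadiest, with 0.06 in multiparous and 0.10 in virgin hearts. No test was made of the spread.

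Co-variation was examined within each group, over 28 pairs of members and 6 relations of a member to a marker or gene list, 68 relations in all. With 8 libraries a group, 0 passed after Benjamini-Hochberg adjustment, while 8 had an unadjusted exact permutation p under 0.05 for Pearson's r and 5 for Spearman's rho. With 4 libraries a code, no correlation within codes was taken. Among member pairs, Nppa and Pcsk6 had an r of 0.71 in multiparous hearts (exact permutation p = 0.0466, adjusted p = 0.384). By rank this pair was weaker there, with a rho of 0.31 (exact permutation p = 0.462, adjusted p = 0.897). Its r was 0.71 without multiparous 2 and multiparous 7, and 0.495 in virgin hearts (exact permutation p = 0.208, adjusted p = 0.561). Corin and Pcsk6 had an r of −0.77 in virgin hearts (exact permutation p = 0.0245, adjusted p = 0.351), and −0.47 without virgin 3 and virgin 6. In multiparous hearts the r of Corin and Pcsk6 was −0.02 (exact permutation p = 0.961, adjusted p = 0.972). In multiparous hearts r was −0.77 for Npr1 with Mme (exact permutation p = 0.0272, adjusted p = 0.351), and −0.32 without multiparous 3 and multiparous 7. For Pcsk6 with Furin it was −0.75 (exact permutation p = 0.031, adjusted p = 0.351), and −0.85 without multiparous 2 and multiparous 3. The same pairs had r of −0.08 and −0.30 in virgin hearts. The strongest of the 68 relations, by r and by rho, was that of Nppb with the summed load-response genes in virgin hearts. In virgin hearts r was 0.88 (exact permutation p = 0.00422, adjusted p = 0.287) and rho 0.93 (exact permutation p = 0.00223, adjusted p = 0.152), and r was 0.58 without virgin 2 and virgin 3. In multiparous hearts r was 0.74 (exact permutation p = 0.0284, adjusted p = 0.351) and rho 0.62 (exact permutation p = 0.115, adjusted p = 0.601), and r was 0.19 without multiparous 4 and multiparous 7, so there it rests on those hearts.

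Nppa and Nppb did not move together in a way that passed in either group. In multiparous hearts r was 0.62 (exact permutation p = 0.101, adjusted p = 0.467) and rho 0.45 (exact permutation p = 0.267, adjusted p = 0.727), and r was 0.22 without multiparous 2 and multiparous 7. In virgin hearts r was 0.08 (exact permutation p = 0.859, adjusted p = 0.942) and rho 0.40 (exact permutation p = 0.327, adjusted p = 0.766). There r was 0.66 without virgin 7 alone and 0.40 without virgin 3 and virgin 7. Mme and the kidney sum had an r of 0.75 in multiparous hearts, which did not pass (exact permutation p = 0.0307, adjusted p = 0.351) and rho of 0.64 (exact permutation p = 0.0962, adjusted p = 0.595), and r was 0.55 without multiparous 3 and multiparous 7. Over all 16 libraries r was 0.30 after removal of the group means and 0.14 after removal of the code means. In virgin hearts, where that sum was larger, r was 0.09 (exact permutation p = 0.84, adjusted p = 0.942) and rho 0.21 (exact permutation p = 0.619, adjusted p = 0.936). Here r was 0.81 without virgin 1 and virgin 7.

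The genes most like each member were sought among 12429 genes of at least 1 CPM over 16 libraries, after removal of the group means, and are given as a description. For Nppb these included Rcan1 (r = 0.92) and Ankrd23 (0.86). Rcan1 was high in the same hearts as Nppb, with r of 0.94 within multiparous and 0.90 within virgin hearts, and stayed at 0.84 without the 2 hearts farthest out in Nppb. For Nppa they were Thbs4, a thrombospondin of the stressed heart, Megf10 and Ganc (r = 0.81, 0.81 and 0.80), and r was 0.65 to 0.69 without the 2 hearts farthest out in Nppa. Thbs4 was highest in virgin 7, at 8.15 CPM, and next in multiparous 7, at 6.85 CPM. Its group means did not differ past the threshold (log2 fold change 0.11, edgeR adjusted p = 0.926).

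**Figure D4:**
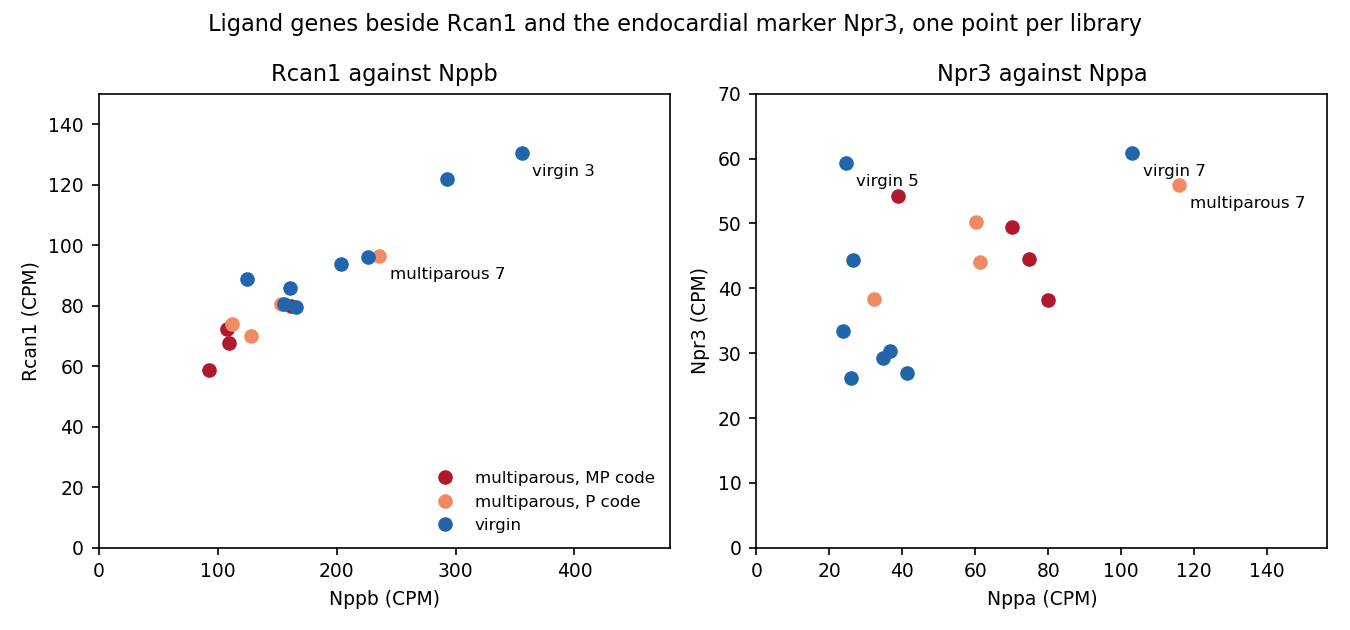
Left, Rcan1 against Nppb in CPM, and right, Npr3 against Nppa in CPM, with 1 point per library (linear axes from 0). Rcan1 is high in the hearts where Nppb is high, in both groups (r = 0.94 in multiparous and 0.90 in virgin hearts), while virgin 5 holds 59.3 CPM of Npr3 at 24.5 CPM of Nppa.

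For the remaining members the closest genes were Ppip5k2, Fam117b and Ptpru for Corin (r from 0.84 to 0.89), and Tmem41a, Smg5 and Atg9a for Furin (0.87 to 0.90). Npr1 was closest to Mfsd10, Kazn and Tnfaip3 (0.83 to 0.85). Tsc2 and Aak1 were among the closest to Npr2 (0.92 and 0.89), and Ptpn3 and Lap3 among the closest to Mme (0.87 and 0.86). None of the genes named here passed the threshold between multiparous and virgin hearts.

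Some members share exonic bases with other annotated genes. The library kit keeps strand, but whether the counting used it is not given in the sources used here. In Nppa, 532 of 865 exonic bases lie opposite Gm13054, which measured 0.104 to 0.606 CPM over the 16 libraries. Npr1, Npr2, Corin and Furin each have a smaller share of their exons opposite a predicted gene of at most 0.281 CPM, and Pcsk6 shares 156 bases on its own strand with Gm45213, which was at 0 in all libraries. Corin (ENSMUSG00000005220.10) lies on chromosome 5 at 72300025 to 72504473, minus strand. Pcsk6 (ENSMUSG00000030513.14) is at 65861734 to 66050386 of chromosome 7, plus strand, and Furin (ENSMUSG00000030530.15) on chromosome 7 at 80388585 to 80405436, minus strand. Npr1 (ENSMUSG00000027931.12) is at 90450591 to 90465866 of chromosome 3, minus strand, and Mme (ENSMUSG00000027820.12) on chromosome 3 at 63241537 to 63386030, plus strand. Npr2 (ENSMUSG00000028469.15) lies on chromosome 4 at 43631935 to 43651244, plus strand.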

How the data were processed

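Total RNA of 16 left ventricle mid sections was sequenced after removal of ribosomal RNA, per the labels' protocols. For each library the authors deposited raw read counts by gene. The submitters' processing notes name HTSeq 0.11.1, STAR 2.7.11b, Trim Galore 0.6.10 with cutadapt 4.8, and the build GRCm38.p6. No source used here gives the annotation release or strand setting. Reads assigned to no gene, 26.5% to 33.1% by library, were left out of totals and tests. All 8 gene identifiers matched GENCODE M21 of GRCm38, version included, and coordinates are from it. Promoter sequences are from RefSeq, GRCm38.p6.

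The test of these counts was that of edgeR 4.0.16, R 4.3.3 (filterByExpr, TMM factors, quasi-likelihood F-test on group alone, Benjamini-Hochberg adjustment over all genes tested, threshold 0.05), after the script was tested on simulated data. SEs come from the F statistic. Correlations use log2 CPM with a prior count of 2 and exact two-sided permutation over 40320 pairings of 8 libraries. Alternatives used DESeq2 1.42.0, limma 3.58.1, other factors and filters, covariates, each code alone and leaving out each library. The members and lists were chosen with earlier results of these data known. The text names the 8 members, every gene of a pathway list that passed and its 3 smallest p, and the 3 genes most like each member, with predicted genes passed over and some not reported here. Other marker genes are named beside a member's result. Genes shown by library beside the ligands were chosen after their values were seen. The labels count mice but tie no library to an animal, so a p-value reflects spread among libraries, which may be technical. Over 56 pairs within groups, none agreed within sampling noise (lowest chi-square per degree of freedom 9.85).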

Additional observations from a re-analysis of the deposited data

Results flagged for a closer look

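Of 16 sets of 8 libraries (8 genes in 2 groups), 2 had a library set apart from the rest by a gap large against the range of its group, and chance gives about 1 in 20. Nppa in virgin 7 stood at 103 CPM, with a gap of 0.778 of the virgin range to the next library. Npr2 in multiparous 7 stood at 73.1 CPM, with a gap of 0.565 of the multiparous range.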

How the results depend on the processing

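Over 32 alternatives of the multiparous against virgin comparison, Nppa, Nppb and Pcsk6 kept their direction. Pcsk6 passed with DESeq2 (log2 fold change 0.33), making 1 member called. Nppa passed without virgin replicate 7, and leaving out 1 library each gave 0 to 1 members called, with 0.59 to 1.13 for Nppa. Smaller differences changed sign. Corin was at −0.081 in P-coded hearts, −0.044 with the kidney, −0.028 with the atrial, −0.018 with the fibroblast and −0.077 with the endocardial covariate. Furin was at −0.032 in P-coded hearts, −0.0152 with the kidney and −0.0028 with the endocardial covariate. Npr1 was at −0.0043 in MP-coded hearts and −0.0023 with the fibroblast covariate, and Npr2 at 0.0147 without factors. Mme was at 0.10 in MP-coded hearts, 0.10 with the kidney and 0.14 with the endocardial covariate. Leaving out 1 library each gave −0.042 to 0.056 for Corin, −0.015 to 0.061 for Furin and −0.10 to 0.0013 for Mme. The cause of these changes was not tested.

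Over all genes, the count past the threshold, 2, was 0 without factors, with robust dispersion, in MP-coded hearts and with the kidney, atrial, fibroblast or endocardial covariate. It was 56 without a filter on low counts, 130 with DESeq2, 97 in P-coded hearts and 0 to 55 when 1 library each was left out, the highest without virgin 7. With the replicate number as a block it was 33, and 0 members passed. Libraries of the same number correlated above 0.1 in 1 of 8 pairs, so the numbers were not taken to pair the hearts. Between the codes, that count, 22, was 7 without factors, 389 without a filter, 14 with the stricter filter, 295 with DESeq2, 13 with limma voom and 3 to 197 when 1 library each was left out, the highest without multiparous 5. Nppa between the codes was at 0.055 with limma voom and −0.26 to 0.36, and Pcsk6 at −0.12 to 0.0054, when 1 library each was left out. In virgin hearts, r of Nppa with Nppb ranged from −0.049 to 0.66 and of Mme with the kidney sum from −0.20 to 0.61 when 1 library each was left out. In multiparous hearts r of Mme with the kidney sum ranged from 0.62 to 0.91.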
